A study of Homo sapiens with 6 samples.

Results

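Kinesins are the motor proteins that walk along microtubules, and the CENP genes encode proteins of the centromere and of the kinetochore built on it. Members were every gene of the count table named KIF with a number and at most 1 letter from A to C, or CENP with 1 letter from B to X. They numbered 55 of the 34234 genes in the table, 37 of them kinesins and 18 of them CENP genes. The centromeric histone gene CENPA and the minus-end-directed kinesins of the KIFC group carry other names and fall outside this rule. RNA was measured in HCCLM3, a highly metastatic human liver cancer cell line. One group received a lentivirus carrying a hairpin against ATXN7L3 (shATXN7L3, 3 libraries), and the other received a lentivirus carrying a control hairpin (shcontrol, 3 libraries). ATXN7L3 is an adaptor of the deubiquitinase module of the SAGA complex, which removes ubiquitin from histone H2B. Both groups carried a lentivirus and came from the same line; the hairpin sequences and the time of harvest are not in the labels. Separate cultures are not stated for the replicates, so p-values cover the spread among the libraries only, and that spread may be technical.

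Kinesins use ATP to step along microtubules. Mitotic kinesins build and slide the spindle, move chromosomes and organise the midbody in cytokinesis, while transport kinesins carry vesicles, mitochondria and ciliary cargo in cells at every stage of the cycle. At the centromere, a constitutive network of CENP proteins sits on nucleosomes that hold CENP-A, and the outer kinetochore attaches to microtubules on top of it. Many mitotic genes are transcribed late in the cell cycle from promoters that hold a cell cycle homology region (CHR) and CCAAT boxes bound by NF-Y, and genes of DNA replication more often hold an E2F element. Their RNA levels are widely used as a readout of how many cells in a culture are dividing.

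Roles were given by textbook function: 12 mitotic kinesins, 15 transport kinesins, 10 other kinesins, 13 inner kinetochore CENP genes and 5 other CENP genes. CENPE, itself a mitotic kinesin, was counted by its name among the other CENP genes and not among the mitotic kinesins. RefSeq promoters on GRCh38.p14, 300 bases from 250 before to 50 after the start, were matched by symbol for 45 of the 55 members. Both strands were searched for CHR (TTTGAA), for the CCAAT box (CCAAT) and for E2F (TTCCCGC or TTGGCGC). CHR stood in 9 of 12 mitotic kinesin promoters (75%), against 15.2% of all 35116 promoters. The CCAAT box stood in 10 of those 12 (83.3%), against 34.6% of all promoters. Both elements together stood in 8 of 12 (66.7%), against 5.9% of all promoters. Among the 12 matched transport kinesin promoters CHR stood in 1 and the CCAAT box in 3. Inner kinetochore CENP promoters held CHR in 3 of 10 and the CCAAT box in 6 of 10. E2F stood in 3 of 12 promoters of each kinesin class, mitotic and transport, against 9.23% of all promoters. Among the 10568 matched promoters of tested genes CHR stood in 10%, the CCAAT box in 36.4%, E2F in 14.4%, and CHR with the CCAAT box in 4.17%. A match is a description of letters in the window and not a shown binding site.

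**Figure D1:**
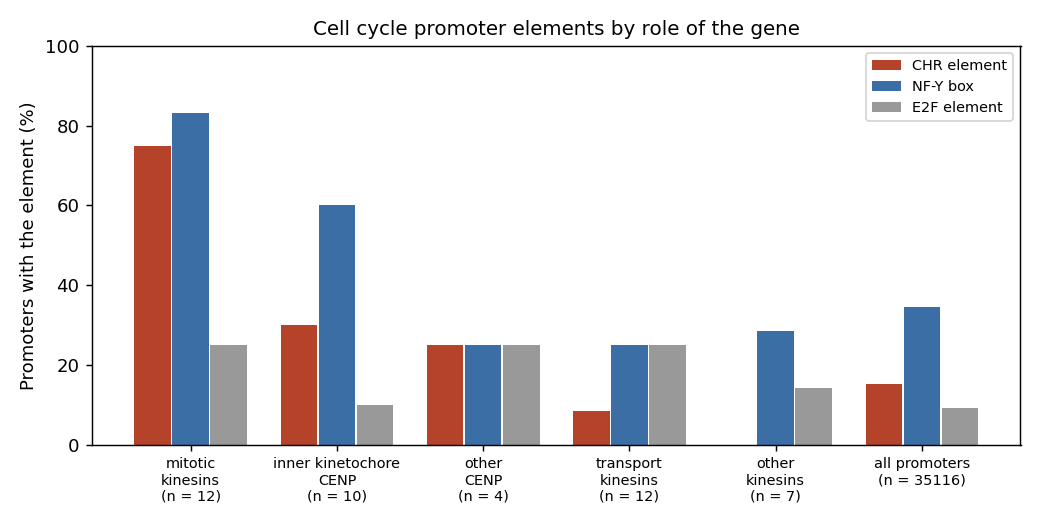
Percent of promoters (vertical axis) that hold each of 3 elements, by role of the gene and for all RefSeq promoters (horizontal axis, with the number of promoters); the NF-Y box in the legend is the CCAAT box. The bars for CHR and the CCAAT box are tallest in mitotic kinesins, at 75% and 83.3%, against 15.2% and 34.6% of all promoters.

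The 5 promoters below are shown in the gene's own direction, 5′ to 3′, with CHR and CCAAT matches on either strand in capitals, because they set members whose RNA rose beside mitotic kinesins that did not. CENPP (chr9:92325218-92325517, + strand), CENPE (chr4:103198294-103198593, − strand) and KIF14 (chr1:200620702-200621001, − strand) are mitotic or centromere members that rose in shATXN7L3 cells. KIF23 (chr15:69414099-69414398, + strand) and KIF20B (chr10:89701340-89701639, + strand), both without a call, were chosen after their values were seen.
CENPP: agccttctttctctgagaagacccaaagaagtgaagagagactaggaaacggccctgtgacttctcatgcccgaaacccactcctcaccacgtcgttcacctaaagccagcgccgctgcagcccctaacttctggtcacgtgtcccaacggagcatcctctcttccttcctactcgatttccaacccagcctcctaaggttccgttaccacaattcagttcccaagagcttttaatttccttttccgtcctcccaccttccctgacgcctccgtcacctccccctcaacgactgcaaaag
CENPE: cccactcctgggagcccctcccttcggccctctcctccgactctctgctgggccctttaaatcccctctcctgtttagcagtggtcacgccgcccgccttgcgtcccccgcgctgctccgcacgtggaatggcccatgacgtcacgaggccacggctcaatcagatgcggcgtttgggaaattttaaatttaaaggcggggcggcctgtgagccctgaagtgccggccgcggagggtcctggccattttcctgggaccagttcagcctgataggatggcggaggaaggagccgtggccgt
KIF14: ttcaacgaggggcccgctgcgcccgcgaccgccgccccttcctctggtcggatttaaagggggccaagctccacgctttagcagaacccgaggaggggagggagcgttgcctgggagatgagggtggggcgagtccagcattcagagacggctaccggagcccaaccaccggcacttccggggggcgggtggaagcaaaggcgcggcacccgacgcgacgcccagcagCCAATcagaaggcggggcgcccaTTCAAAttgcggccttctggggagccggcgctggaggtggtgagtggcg
KIF23: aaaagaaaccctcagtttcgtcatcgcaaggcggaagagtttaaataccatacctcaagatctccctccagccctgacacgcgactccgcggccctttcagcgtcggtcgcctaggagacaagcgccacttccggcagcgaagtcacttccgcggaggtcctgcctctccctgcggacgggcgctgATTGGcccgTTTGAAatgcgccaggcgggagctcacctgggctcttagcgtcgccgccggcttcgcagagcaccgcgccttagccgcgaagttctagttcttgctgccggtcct
KIF20B: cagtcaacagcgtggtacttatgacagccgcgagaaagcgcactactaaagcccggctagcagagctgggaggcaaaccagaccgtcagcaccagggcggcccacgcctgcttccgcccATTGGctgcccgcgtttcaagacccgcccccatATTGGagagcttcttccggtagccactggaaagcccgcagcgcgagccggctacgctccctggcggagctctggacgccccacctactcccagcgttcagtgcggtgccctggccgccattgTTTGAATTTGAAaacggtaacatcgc
In KIF14 the CCAAT match began at base -22 and the CHR match at base 2, counted from the transcription start. In KIF23 they began at -64 and -55. KIF20B held a pair of CCAAT matches, at -131 and -98, and a pair of adjacent CHR matches at 25 and 31. The CENPP and CENPE windows held neither element, nor E2F. Of the 6 members that rose, 1 promoter (KIF14) held CHR and the CCAAT box. Neither of the 2 matched members that fell held CHR or the CCAAT box. Of the 32 matched members without a call, 12 held CHR and 20 held the CCAAT box. The roles of the members differ between these sets, and KIF14 was the only mitotic kinesin that rose. Most mitotic kinesins without a call held CHR, KIF23 and KIF20B among them, and a few, KIF20A and KIF22 among them, did not. Whether the elements go with a change in RNA was not tested.

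Libraries held 22757031 to 23915783 counts in shATXN7L3 cells and 22376867 to 23033763 counts in shcontrol cells. Levels are given as CPM, counts per 1e+06 counts of a library after scaling by the trimmed mean of M-values. ATXN7L3 (chr17:44191805-44200113, − strand, GRCh38) had 20.6, 20.5 and 19.5 CPM in shATXN7L3 cells, against 36.4, 37.5 and 37.5 CPM in shcontrol cells. That is 54.5% of the control level and a log2 fold change of -0.88 ± 0.056 (SE; edgeR's quasi-likelihood test, Benjamini-Hochberg adjusted p = 6.69e-10). An exact two-sided permutation test gave p = 0.1, the smallest that 3 against 3 libraries can give. All 8 tested hepatocyte markers were lower in shATXN7L3 cells, led by TF, ALB, SERPINA1 and FGB, and DESeq2 called 6 of the 8. All 9 markers of that list, tested or not, summed to 179 to 184 CPM in shATXN7L3 cells, against 443 to 495 CPM in shcontrol cells. Of 5 leukocyte markers, summing to 120 to 125 CPM in shATXN7L3 cells and 90.1 to 109 CPM in shcontrol cells, CD68 rose (mean 122 CPM in shATXN7L3 cells and 100 CPM in shcontrol cells) and LYZ fell (mean 0.169 CPM in shATXN7L3 cells and 0.922 CPM in shcontrol cells). PTPRC reached at most 0.293 CPM in any library, and CD3E was at 0 counts in all shATXN7L3 libraries. Of 4 endothelial markers, summing to 42.4 to 44.4 CPM in shATXN7L3 cells and 57.2 to 62.1 CPM in shcontrol cells, PECAM1 fell (mean 28.0 CPM in shATXN7L3 cells and 43.7 CPM in shcontrol cells), while CDH5 and VWF were near 0. Of 4 neuron markers, summing to 40.7 to 42.9 CPM in shATXN7L3 cells and 42.9 to 45.3 CPM in shcontrol cells, TUBB3 rose and MAP2 fell. The 4 stellate and fibroblast markers summed to at most 0.586 CPM in shATXN7L3 cells and 0.644 CPM in shcontrol cells. The part of these differences in the members' values was not tested.

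Over all tested genes the shcontrol libraries were more spread than the shATXN7L3 libraries. On the second principal component of log2 CPM, shcontrol replicates 1, 2 and 3 lay at 18.9, 0.5 and -19.3. The shATXN7L3 replicates lay at -2, 5.8 and -3.9. Shcontrol replicate 3 was thus about as far out as shcontrol replicate 1, on the other side. In several members, shcontrol replicate 1 stood apart from the other shcontrol libraries. Its log2 CPM minus the mean of shcontrol replicates 2 and 3 was -0.84 for KIF20B, -0.69 for CENPF, -0.68 for CENPE, -0.60 for KIF26B and -0.46 for KIF14. The value of KIF26B rests on few counts, 11 in shcontrol replicate 1 against 16 and 19 in replicates 2 and 3. At a limit of -0.5, 4 of the 48 tested members were that low, against 686 of all 17935 tested genes (3.82%). These 5 members each have over 6000 exonic bases, and their GC content was 34.2% for KIF20B, 40.8% for CENPF, 35.3% for CENPE, 52.6% for KIF26B and 38.3% for KIF14. The other tested members with over 6000 exonic bases ran from -0.29 (KIF3A) to 0.15 (CENPP) in shcontrol replicate 1. Among all genes in the lowest quartile of GC content, 5.05% of those with at least 6000 exonic bases and 4.15% of shorter ones were at -0.5 or below in that library; in the other quartiles the shares were 1.38% and 2.86%. Over all genes with a GC value, shcontrol replicate 1 read -0.057 (log2, against the other libraries) in the lowest quartile of GC content and 0.057 in the highest. Its part in the results below was not tested, and values without this library are given where it changes the call of a named member or moves the value of a called member by over 1.5 times.

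**Figure D2:**
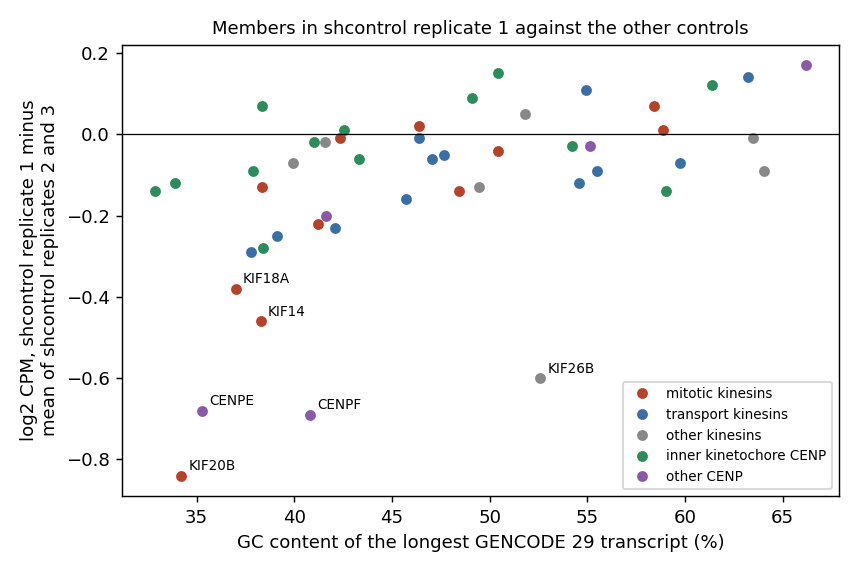
Log2 CPM of shcontrol replicate 1 minus the mean of shcontrol replicates 2 and 3 (vertical axis) against the GC content of the gene's longest transcript in percent (horizontal axis), 1 point per tested member, coloured by role. KIF20B at -0.84, CENPF at -0.69 and CENPE at -0.68 lie farthest below 0, and all 3 have a GC content of 40.8% or less.

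The comparison of shATXN7L3 with shcontrol asked which genes change when ATXN7L3 is silenced. Of the 55 members, 48 passed the filter on low counts and were tested. In shATXN7L3 cells 6 of them rose, 4 fell and 38 did not pass an adjusted p of 0.05, so 10 of 48 changed, against 24.2% of all 17935 tested genes. Over all tested genes 12.2% rose and 12.0% fell, and the members' share was near that background in each direction. The same shares are the background for each count by role or list below that comes from this fit. The members' log2 fold changes ran from -0.45 to 0.47 with a median of 0.04, against a median of 0.01 over all tested genes. In 13 of the 48 tested members every shATXN7L3 library was above every shcontrol library, and in 7 every one was below. Over all 17935 tested genes the numbers were 3554 and 3307. Such separation comes from the same values as the test and is not further support for a call. Kinesins rose in 4 and fell in 2 of 30 tested; CENP genes rose in 2 and fell in 2 of 18. Without shcontrol replicate 1, 6 members rose and 6 fell: 4 kinesins rose and 5 fell, and 2 CENP genes rose and 1 fell. With DESeq2, 3 members rose and 2 fell. DESeq2 also called fewer of all tested genes higher than edgeR did. No share of all tested genes under the same setting is set beside these counts, so they do not describe the members alone. In bulk RNA, fewer cells in a stage of the cycle and less RNA per cell cannot be told apart.

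**Figure D3:**
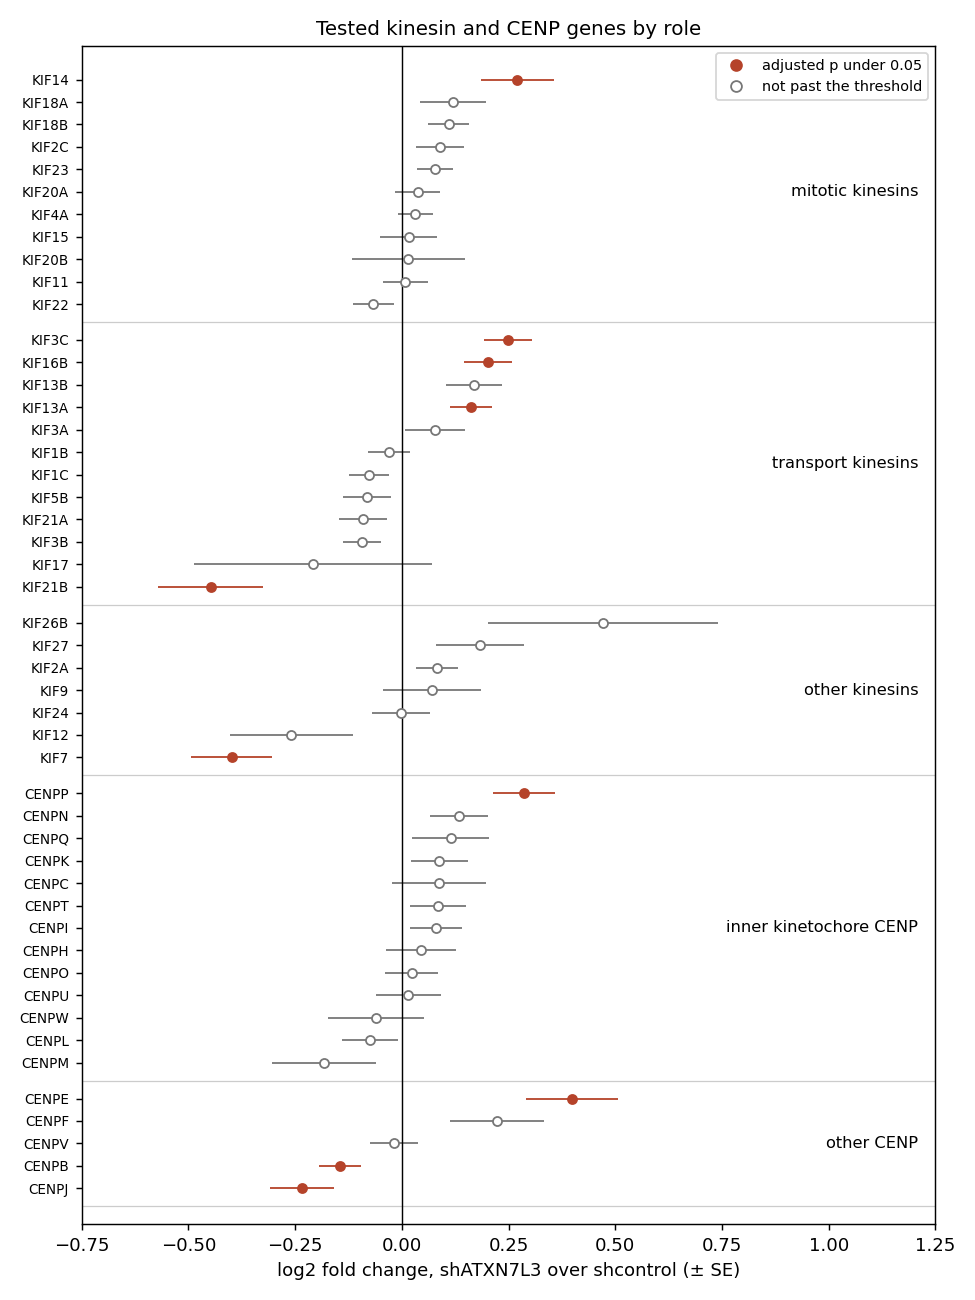
Log2 fold change of shATXN7L3 over shcontrol (horizontal axis, ± SE) for each of the 48 tested members, grouped by role down the page; filled points passed an adjusted p of 0.05. Every point lies between -0.45 and 0.47, and the 10 filled points are spread over all 5 roles.

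Among mitotic kinesins 1 of 11 tested rose, none fell, and the median log2 fold change was 0.04. The member that rose was KIF14 (chr1:200551497-200620734, − strand), which works at the central spindle and midbody in cytokinesis. KIF14 had 63.4, 61.7 and 63.0 CPM in shATXN7L3 cells, against 41.5, 53.5 and 60.8 CPM in shcontrol cells. Every shATXN7L3 library was above every shcontrol library, but the highest shcontrol library was close to them and replicate 1 was far below. The means were 62.7 ± 0.856 and 52.0 ± 9.75 CPM (SD, n = 3 each), with a log2 fold change of 0.27 ± 0.085 (SE; adjusted p = 0.0249 by edgeR). Without shcontrol replicate 1 the log2 fold change of KIF14 was 0.13 (edgeR adjusted p = 0.0687), and the call was also lost with DESeq2 (adjusted p = 0.267) and without any 1 of shcontrol replicate 2 or the 3 shATXN7L3 libraries (edgeR adjusted p of 0.0537 to 0.0802).

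The most abundant mitotic kinesins per length of transcript did not pass the test. KIF4A, a chromosome-bound motor, had 180, 179 and 179 CPM in shATXN7L3 cells, against 177, 178 and 170 CPM in shcontrol cells. KIF23, the motor of the centralspindlin complex, had 123, 126 and 123 CPM in shATXN7L3 cells, against 117, 114 and 120 CPM in shcontrol cells. KIF20A, which brings the chromosomal passenger proteins to the central spindle, had 56.0, 57.6 and 56.6 CPM in shATXN7L3 cells, against 51.8, 55.9 and 58.1 CPM in shcontrol cells. All 3 had a log2 fold change within 0.08 of 0, and KIF4A and KIF23 read slightly higher in every shATXN7L3 library. The interval of 2 SE around the log2 fold change was -0.05 to 0.12 for KIF4A, -0.01 to 0.16 for KIF23 and -0.07 to 0.14 for KIF20A. KIF11, the motor that pushes the spindle poles apart, was about as tightly bounded as KIF20A, from -0.10 to 0.11. KIF22, which moves chromosome arms, lay lower in all 3 shATXN7L3 libraries (46.8 to 48.4 CPM, against 49.7 to 50.3 CPM in shcontrol cells; log2 fold change -0.07, edgeR adjusted p = 0.351).

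The calls of 2 further mitotic kinesins moved with shcontrol replicate 1. KIF20B, which acts in cytokinesis, had 38.0, 42.2 and 40.2 CPM in shATXN7L3 cells, against 26.0, 46.6 and 46.8 CPM in shcontrol cells. The shATXN7L3 libraries lay between shcontrol replicate 1 and the other shcontrol libraries. Its log2 fold change was 0.02 ± 0.132 with all libraries (edgeR adjusted p = 0.953) and -0.22 without shcontrol replicate 1 (edgeR adjusted p = 0.00357). KIF18B, which limits the length of astral microtubules, had 58.1, 59.7 and 57.7 CPM in shATXN7L3 cells, against 56.0, 52.6 and 54.0 CPM in shcontrol cells. Its groups did not overlap, with a log2 fold change of 0.11 (adjusted p = 0.108 by edgeR) that was 0.14 without shcontrol replicate 1 (edgeR adjusted p = 0.0442) and 0.15 with scaling by library size alone (edgeR adjusted p = 0.0280). The summed level of the 12 mitotic kinesins was 715, 728 and 716 CPM in shATXN7L3 cells, against 654, 706 and 710 CPM in shcontrol cells. Apart from shcontrol replicate 1, the sums differed little. KIF4B, an intronless near-copy of KIF4A whose reads may be shared with it, had 3 to 14 counts in shATXN7L3 cells and 6 to 9 counts in shcontrol cells and was not tested.

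Among transport kinesins 3 of 12 tested rose and 1 fell, with a median log2 fold change of -0.05. Those that rose were KIF3C, a kinesin-2 motor, and the kinesin-3 motors KIF16B and KIF13A, which move early and recycling endosomes. KIF21B, a kinesin-4 motor best known from neurons and lymphocytes, fell. Whether transport and mitotic kinesins differed as classes was not tested. The counts are 4 called of 12 transport kinesins and 1 called of 11 mitotic kinesins, against 24.2% of all tested genes. The mitotic count leaves out CENPE, a mitotic kinesin counted with the CENP genes, which also rose. Without shcontrol replicate 1, 3 transport kinesins rose and 3 fell, and 1 mitotic kinesin rose and 1 fell. With DESeq2, 2 transport kinesins and no mitotic kinesin rose, and none of either class fell. The summed level of the 15 transport kinesins was 843, 848 and 855 CPM in shATXN7L3 cells, against 810, 873 and 890 CPM in shcontrol cells, and the groups overlapped.

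KIF3C (chr2:25926596-25982749, − strand) had 48.4, 49.7 and 45.1 CPM in shATXN7L3 cells, against 38.5, 39.7 and 42.4 CPM in shcontrol cells. The groups did not overlap, with means of 47.7 ± 2.39 and 40.2 ± 2.01 CPM (SD, n = 3 each) and a log2 fold change of 0.25 ± 0.056 (adjusted p = 0.00247 by edgeR). The call of KIF3C held under all 15 alternatives, with values from 0.22 to 0.29. KIF3A and KIF3B form the heterotrimeric kinesin-2 motor with the non-motor subunit KIFAP3, and KIF3C can pair with KIF3A. KIF3A had 27.4, 27.4 and 27.0 CPM in shATXN7L3 cells, against 22.5, 27.5 and 27.5 CPM in shcontrol cells (log2 fold change 0.08, edgeR adjusted p = 0.465). KIF3B had 83.7, 82.5 and 83.0 CPM in shATXN7L3 cells, against 86.5, 89.8 and 89.4 CPM in shcontrol cells, lower in every library but without a call (log2 fold change -0.09, edgeR adjusted p = 0.141). KIFAP3, which is not a member, rose: it had 16.9, 18.8 and 17.1 CPM in shATXN7L3 cells, against 11.2, 11.5 and 11.5 CPM in shcontrol cells. Its log2 fold change was 0.63 ± 0.073 (edgeR adjusted p = 2.55e-06), or 155% of the control level, larger than that of any tested member. An exon of KIFAP3 overlaps RP11-332H17.1 on the other strand, and the strand setting of the counting is not given in the sources used here.

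**Figure D4:**
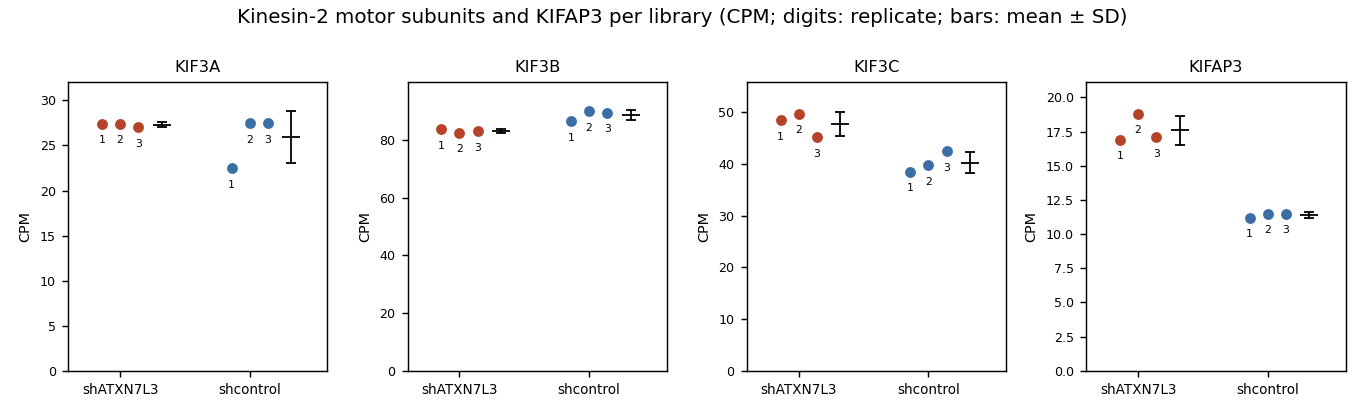
Levels in CPM (vertical axis, from 0) of the kinesin-2 motor genes KIF3A, KIF3B and KIF3C and of their partner KIFAP3 in each library (numbered points), with mean ± SD beside each group of 3. The shATXN7L3 points lie above all shcontrol points for KIF3C and KIFAP3 and below them for KIF3B.

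KIF16B (chr20:16272104-16573434, − strand) had 71.6, 74.6 and 76.5 CPM in shATXN7L3 cells, against 59.7, 63.4 and 70.6 CPM in shcontrol cells. The lowest shATXN7L3 library was just above the highest shcontrol library, and the log2 fold change was 0.20 ± 0.056 (edgeR adjusted p = 0.0128). KIF13A (chr6:17759183-17987623, − strand) had 53.6, 52.2 and 55.4 CPM in shATXN7L3 cells, against 47.8, 47.8 and 48.4 CPM in shcontrol cells. The groups of KIF13A did not overlap, and the log2 fold change was 0.16 ± 0.049 (edgeR adjusted p = 0.0187). The call of KIF16B was lost without shATXN7L3 replicate 2 (edgeR adjusted p = 0.0525), shATXN7L3 replicate 3 (0.0768) or shcontrol replicate 2 (0.0557). That of KIF13A was lost with DESeq2 (adjusted p = 0.0677) and without shATXN7L3 replicate 1 (edgeR adjusted p = 0.0627), shATXN7L3 replicate 3 (0.105) or shcontrol replicate 2 (0.0570). KIF13B, the closest relative of KIF13A, read higher in every shATXN7L3 library (21.2 to 23.2 CPM, against 18.6 to 20.5 CPM in shcontrol cells) without a call (log2 fold change 0.17, edgeR adjusted p = 0.0649). It was called with scaling by library size alone (edgeR adjusted p = 0.0280) and without shcontrol replicate 3 (edgeR adjusted p = 0.0479).

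KIF21B (chr1:200969390-201023700, − strand) had 3.44, 3.36 and 3.31 CPM in shATXN7L3 cells, against 4.44, 4.70 and 4.66 CPM in shcontrol cells. Every shATXN7L3 library was below every shcontrol library, at 73.3% of the control level and a log2 fold change of -0.45 ± 0.123 (adjusted p = 0.0112 by edgeR; DESeq2 adjusted p = 0.0647). The much more abundant KIF21A, a second kinesin-4 motor, had 139, 139 and 149 CPM in shATXN7L3 cells, against 136, 161 and 158 CPM in shcontrol cells. The groups of KIF21A overlapped through shcontrol replicate 1, and the log2 fold change was -0.09 with all libraries (edgeR adjusted p = 0.262) and -0.16 without that library (edgeR adjusted p = 0.00750). KIF5B, the widely expressed heavy chain of kinesin-1, followed the same pattern with 197, 200 and 202 CPM in shATXN7L3 cells, against 188, 219 and 228 CPM in shcontrol cells. Its log2 fold change was -0.08 with all libraries (edgeR adjusted p = 0.327) and -0.16 without shcontrol replicate 1 (edgeR adjusted p = 0.00578). KIF1C, a kinesin-3 motor, had 125, 129 and 122 CPM in shATXN7L3 cells, against 139, 131 and 126 CPM in shcontrol cells, and the groups overlapped.

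The neuronal transport kinesins KIF1A, KIF5C and KIF5A were almost absent from these libraries, unlike KIF21B. KIF1A had 0, 2 and 0 counts in shATXN7L3 cells and 0 counts in all shcontrol libraries. KIF5C had 1, 0 and 0 counts in shATXN7L3 cells and 0 counts in all shcontrol libraries. KIF5A had 5 to 13 counts in shATXN7L3 cells and 4 to 8 counts in shcontrol cells. None of these 3 passed the filter, and no fold change is given for them. A count of 0 allows up to 3 counts, which is 0.124 to 0.129 CPM in shATXN7L3 libraries and 0.132 to 0.138 CPM in shcontrol libraries, counting error only.

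Of the other kinesins 1 of 7 tested fell and none rose, with a median log2 fold change of 0.07. The member that fell was KIF7 (chr15:89608789-89655451, − strand), a regulator of Hedgehog signalling at the tip of the primary cilium. KIF7 had 5.89, 6.02 and 5.98 CPM in shATXN7L3 cells, against 7.56, 7.92 and 8.13 CPM in shcontrol cells. The groups were well apart, with means of 5.96 ± 0.0641 and 7.87 ± 0.290 CPM (SD, n = 3 each) and a log2 fold change of -0.40 ± 0.096 (adjusted p = 0.00430 by edgeR). The call of KIF7 held under all 15 alternatives. KIF7 exons overlap TICRR on the other strand, and TICRR averaged 42.8 CPM in shATXN7L3 cells and 46.6 CPM in shcontrol cells (log2 fold change -0.12, edgeR adjusted p = 0.155). KIF27, the closest relative of KIF7, had 7.23, 6.97 and 6.90 CPM in shATXN7L3 cells, against 5.96, 5.71 and 6.90 CPM in shcontrol cells, without a call (log2 fold change 0.18, edgeR adjusted p = 0.223). KIF2A, which takes tubulin off microtubule ends, and KIF24, which does so at centrioles, had log2 fold changes of 0.08 and 0.00. An exon of KIF2A overlaps IPO11 on the same strand, so its reads are uncertain. KIF26B had the largest log2 fold change of the tested members, 0.47 ± 0.269, at a level of 0.860 to 1.00 CPM in shATXN7L3 cells, against 0.489 to 0.835 CPM in shcontrol cells, and did not pass the test (edgeR adjusted p = 0.228). KIF19, KIF25 and KIF26A had at most 5 counts in any library of either group and were not tested.

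Of the inner kinetochore CENP genes 1 of 13 rose and none fell, with a median log2 fold change of 0.08. The member that rose was CENPP (chr9:92325484-92620533, + strand), a subunit of the complex with CENP-O, CENP-Q, CENP-R and CENP-U. CENPP had 23.2, 21.1 and 22.1 CPM in shATXN7L3 cells, against 19.5, 18.7 and 16.3 CPM in shcontrol cells. The groups did not overlap, with means of 22.1 ± 1.03 and 18.2 ± 1.66 CPM (SD, n = 3 each) and a log2 fold change of 0.29 ± 0.072 (adjusted p = 0.00592 by edgeR). The call of CENPP held under all 15 alternatives. Its exons overlap those of IPPK and NOL8 on the other strand, whose reads may be counted with it. IPPK rose as well, with 20.0 CPM in shATXN7L3 cells and 16.9 CPM in shcontrol cells (edgeR adjusted p = 0.0201), and NOL8 averaged 139 CPM in shATXN7L3 cells and 127 CPM in shcontrol cells (edgeR adjusted p = 0.0566). The partners of CENPP in its complex had no call, with log2 fold changes of 0.02 for CENPO, 0.02 for CENPU, 0.12 for CENPQ and 0.12 for ITGB3BP, which encodes CENP-R. The intervals of 2 SE for CENPQ (-0.07 to 0.30) and ITGB3BP (-0.06 to 0.30) held the value of CENPP. Those for CENPO (-0.10 to 0.15) and CENPU (-0.14 to 0.17) did not. The most abundant inner kinetochore genes per length without a call were CENPW, a histone-fold partner of CENPT, CENPN, which binds CENP-A nucleosomes, and CENPI. Their log2 fold changes were -0.06, 0.13 and 0.08, and the intervals of 2 SE were -0.28 to 0.16, 0.00 to 0.27 and -0.04 to 0.20.

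Of the 5 other CENP genes 1 rose and 2 fell. CENPE and CENPF act at the outer kinetochore, CENPB on satellite DNA and CENPJ at the centriole, and CENPV is the remaining gene. CENPE (chr4:103105806-103198409, − strand), itself a kinesin that carries chromosomes to the spindle equator, had 58.8, 61.5 and 62.3 CPM in shATXN7L3 cells, against 33.0, 51.9 and 53.7 CPM in shcontrol cells. Every shATXN7L3 library was above every shcontrol library, and shcontrol replicate 1 was far below the rest. The log2 fold change of CENPE was 0.40 ± 0.108 (edgeR adjusted p = 0.0100) with all libraries and 0.21 without shcontrol replicate 1 (edgeR adjusted p = 0.00261). DESeq2 did not call it (adjusted p = 0.239). CENPF (chr1:214603195-214664588, + strand), a large coiled-coil protein of the outer kinetochore, had 348, 357 and 346 CPM in shATXN7L3 cells, against 212, 334 and 353 CPM in shcontrol cells. Apart from shcontrol replicate 1 the libraries of CENPF overlapped, and the log2 fold change was 0.22 ± 0.11 with all libraries (edgeR adjusted p = 0.155) and 0.03 without that library (edgeR adjusted p = 0.699). CENPF was called without shcontrol replicate 3 (log2 fold change 0.36, edgeR adjusted p = 0.00481) and with no filter on low counts (edgeR adjusted p = 1.96e-05).

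CENPB (chr20:3783851-3786690, − strand), which binds a box in alpha-satellite DNA, was the member with the highest level per length, 64.6 CPM per kilobase in shATXN7L3 cells and 71.4 CPM per kilobase in shcontrol cells. It had 181, 186 and 184 CPM in shATXN7L3 cells, against 219, 197 and 192 CPM in shcontrol cells. The groups did not overlap, with a log2 fold change of -0.14 ± 0.049 (adjusted p = 0.0359 by edgeR). The call of CENPB was lost without shcontrol replicate 1 (log2 fold change -0.09, edgeR adjusted p = 0.151), with scaling by library size alone (0.120) and without any 1 shATXN7L3 library (0.0877 to 0.142). CENPJ (chr13:24882284-24922889, − strand), which sets the length of centrioles, had 30.0, 23.9 and 26.7 CPM in shATXN7L3 cells, against 28.7, 32.5 and 33.5 CPM in shcontrol cells. The groups of CENPJ overlapped, with a log2 fold change of -0.23 ± 0.075 (adjusted p = 0.0291 by edgeR). The call was lost in 6 of 15 alternatives: with DESeq2 (adjusted p = 0.0515), with scaling by library size alone (0.0974), and without shATXN7L3 replicate 2 (0.197), shATXN7L3 replicate 3 (0.0940), shcontrol replicate 2 (0.108) or shcontrol replicate 3 (0.0726). CENPV had 36.3, 37.5 and 38.5 CPM in shATXN7L3 cells, against 37.4, 40.3 and 36.2 CPM in shcontrol cells, and its groups overlapped.

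**Figure D5:**
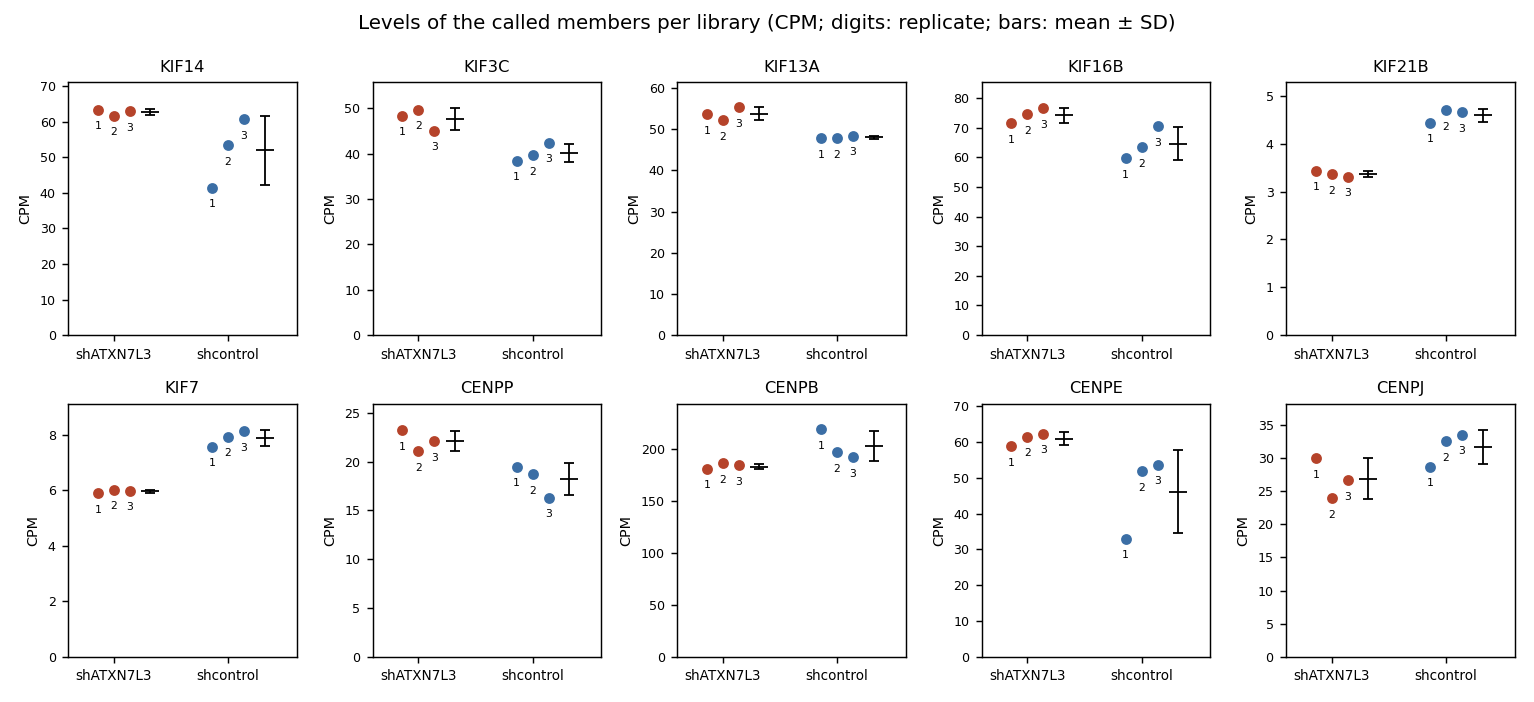
Levels in CPM (vertical axes, from 0) of the 10 members that passed an adjusted p of 0.05, in each shATXN7L3 and shcontrol library (numbered points), with mean ± SD beside each group of 3. The groups overlap for CENPJ alone, and shcontrol replicate 1 lies far below the other shcontrol libraries for KIF14, at 41.5 CPM, and CENPE, at 33.0 CPM. The separation was read from the same values as the calls.

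Per length, KIF4A, KIF5B and CENPF followed CENPB. KIF4A had 39.5 CPM per kilobase in shATXN7L3 cells and 38.6 in shcontrol cells, KIF5B had 34.0 in shATXN7L3 cells and 36.0 in shcontrol cells, and CENPF had 29.9 in shATXN7L3 cells and 25.6 in shcontrol cells. The called kinesins were less abundant on that scale. KIF16B had 9.61 CPM per kilobase in shATXN7L3 cells and 8.36 in shcontrol cells, and KIF21B, the rarest called member, had 0.277 in shATXN7L3 cells and 0.379 in shcontrol cells. Of the 10 called members, 3 kept their call under all 15 alternatives: KIF3C, CENPP and KIF7.

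Genes that work with the members were read from lists made with earlier results of these data known. None of the 6 tested genes of a list for CENP-A and its loading rose or fell, with a log2 fold change of 0.05 for CENPA and 0.08 for its chaperone HJURP (edgeR; 0 at an unadjusted p under 0.05; 0 with DESeq2). An exon of CENPA overlaps another gene on the same strand, so the reads of CENPA are uncertain. Without shcontrol replicate 3, 1 of the 6 was called higher. That list also holds ITGB3BP, which encodes the inner kinetochore protein CENP-R (log2 fold change 0.12, without a call). Of 10 outer kinetochore genes NSL1 rose and MIS12, another subunit of the same complex, fell. MIS12 had 22.7, 22.7 and 24.8 CPM in shATXN7L3 cells, against 26.5, 28.0 and 28.2 CPM in shcontrol cells (log2 fold change -0.24 ± 0.06, edgeR adjusted p = 0.00677), and kept its call under every alternative. An exon of MIS12 overlaps another gene on the other strand, which no alternative addresses. The rise of NSL1 (log2 fold change 0.23, edgeR adjusted p = 0.0417) was lost under 6 of 15 alternatives (adjusted p up to 0.178). Of 10 spindle checkpoint and chromosomal passenger genes 4 rose and none fell: CDCA8, INCENP, AURKB and TTK, with log2 fold changes of 0.22, 0.16, 0.15 and 0.17; over all tested genes 12.2% rose. DESeq2 called 2 of them, CDCA8 and INCENP, and each of the 4 lost its edgeR call when some single library was left out (adjusted p up to 0.154). Without shATXN7L3 replicate 2, or without shcontrol replicate 2, 1 of the 10 rose. Without shcontrol replicate 1, 3 rose, and TTK was not called (edgeR adjusted p = 0.0710). Of 12 spindle and cytokinesis partners SKA1 and AURKA rose and RACGAP1 fell. DESeq2 did not call SKA1 (adjusted p = 0.0734) or AURKA (adjusted p = 0.0630), and SKA1 was not called without shcontrol replicate 1 (log2 fold change 0.21, edgeR adjusted p = 0.0682). RACGAP1, the partner of KIF23 in centralspindlin, had 72.6, 76.7 and 72.5 CPM in shATXN7L3 cells, against 81.2, 84.7 and 86.7 CPM in shcontrol cells (log2 fold change -0.19, edgeR adjusted p = 0.00643; 0.0504 without shATXN7L3 replicate 3).

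Of 10 proliferation markers UBE2C and TOP2A rose, MCM2 fell and 7 did not pass the test, with a median log2 fold change of -0.01. MKI67 had 605, 603 and 604 CPM in shATXN7L3 cells, against 523, 605 and 599 CPM in shcontrol cells, so that the low library was again shcontrol replicate 1. UBE2C, a ubiquitin-conjugating enzyme of mitotic exit, had 50.4, 53.0 and 52.2 CPM in shATXN7L3 cells, against 41.3, 41.4 and 43.6 CPM in shcontrol cells (log2 fold change 0.30, edgeR adjusted p = 1.72e-04). The call of TOP2A was lost without shATXN7L3 replicate 3 (edgeR adjusted p = 0.0549) and that of MCM2 without shATXN7L3 replicate 1 (0.0956) or 3 (0.0629) and with scaling by library size alone (0.0514). CCNB1 and CDK1, which drive entry into mitosis, had log2 fold changes of 0.06 and -0.01 without a call. The part of the dividing share of cells in the members' values was not tested.

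Among 16 tested cargo adaptors, dynein genes and kinesins outside the rule, 5 rose and 2 fell, with a median log2 fold change of 0.01. Over all tested genes 12.2% rose and 12.0% fell, and whether this list differs from them was not tested. Beside KIFAP3, TRAK2, which links mitochondria to kinesin-1, rose with 27.6, 27.0 and 27.0 CPM in shATXN7L3 cells, against 21.3, 22.3 and 22.1 CPM in shcontrol cells (log2 fold change 0.31 ± 0.057, edgeR adjusted p = 4.47e-04). The kinesin light chain KLC2 rose as well (log2 fold change 0.21, edgeR adjusted p = 0.00528), while KLC1 did not pass the test (0.02, edgeR adjusted p = 0.823). The dynein light intermediate chain DYNC1LI2 fell, with 146, 137 and 142 CPM in shATXN7L3 cells, against 152, 162 and 178 CPM in shcontrol cells (log2 fold change -0.21 ± 0.053, edgeR adjusted p = 0.00532). The calls of TRAK2, KLC2 and DYNC1LI2 held under all 15 alternatives. Exons of TRAK2, KLC2 and DYNC1LI2 overlap genes on the other strand, a limit that no alternative addresses. The fall of TRAK1 (log2 fold change -0.16, edgeR adjusted p = 0.0412) was lost under 8 of them (adjusted p up to 0.159).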

How the data were processed

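Poly-A-selected RNA from 6 HCCLM3 libraries was sequenced, per the labels' protocols. The authors deposited 1 table of raw gene counts. GRCh38, edgeR 3.12.1, featureCounts (Subread 1.5.1), STAR 2.5.3a and Trimmomatic 0.36 are listed by the submitters' processing notes. The gene annotation, strandedness and handling of multi-mapped reads were not given in the sources used here. Several named genes overlap others on the other strand, and no alternative addresses that overlap. Groups came from the treatment label.

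Counts were tested with edgeR 4.0.16 in R 4.3.3: filterByExpr (minimum count 10, minimum total 15), scaling by the trimmed mean of M-values, and the quasi-likelihood test on 17935 genes with Benjamini-Hochberg adjustment at 0.05. The SE is the log2 fold change divided by the root of F. Alternatives were DESeq2 1.42.0, limma 3.58.1, other scalings and filters, a replicate block, each library left out, and a GC-dependent offset chosen after seeing the data. GC content came from GENCODE 29 transcripts and promoters from RefSeq (GRCh38.p14).

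The members and gene lists were chosen with earlier results of these data known. The text names every called member, the 3 most abundant per length of each role without a call, members with a log2 fold change past 0.5 in size, members removed by the filter, and up to 4 called genes per list by smallest p. Others named, KIF11, KIF22, KIF18B, KIF20B, KIF3A, KIF3B, KIF13B, KIF26B, the partners of CENPP, genes that overlap members, CENPA, HJURP, MKI67, CCNB1, CDK1, KLC1, DYNC1LI2, TRAK1, ITGB3BP, PTPRC, CD3E, CDH5, VWF, KIFC1 and KIFC2, were chosen after their values were seen.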

Additional observations from a re-analysis of the deposited data

How the results depend on the processing

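Silencing of ATXN7L3 kept its call under all 15 alternatives. With scaling by library size alone no centromere gene fell (0, against 2) and 2 mitotic kinesins rose, against 1. With DESeq2, 1405 of all tested genes rose, against 2182; 2 kinesins rose and 1 fell, 1 centromere gene rose and 1 fell, no mitotic kinesin rose (0) and no transport kinesin fell (0). With each library left out in turn, between 1 and 5 kinesins rose and 2 to 5 fell, 0 to 1 centromere genes fell, 0 to 1 mitotic kinesins rose and 0 to 1 fell, and 1 to 4 transport kinesins rose and 1 to 3 fell. Over those fits the log2 fold change of KIF20B ran from -0.217 to 0.147, and it was called lower without shcontrol replicate 1. The cause of these changes was not tested. Scaling by library size alone moved the median log2 fold change of all genes to 0.049. The GC-dependent offset, added after seeing the data, left the counts at 4 kinesins higher and 2 lower, and 2 centromere genes higher and 2 lower. Deviations from the group means correlated at -0.016, 0.005 and 0.044 between same-numbered libraries, and at -0.072 to 0.067 between differently numbered ones. With 3 libraries per group this cannot tell whether equal numbers mark a shared culture. With the replicate block 4 kinesins rose and 2 fell, and the count of centromere genes that rose was 3, CENPF being added (log2 fold change 0.256, edgeR adjusted p = 0.0258). Depth limited KIF17, KIF26B and the 7 members under the filter, each near or below 1 CPM.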

Other observations

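The kinesin-14 motors walk toward the minus end of microtubules and lie outside the naming rule. KIFC3, which acts at cell junctions and in vesicle transport, had 22.4, 25.1 and 22.7 CPM in shATXN7L3 cells, against 18.7, 17.0 and 17.4 CPM in shcontrol cells. The groups did not overlap, with a log2 fold change of 0.40 ± 0.067 (adjusted p = 1.70e-04 by edgeR), and the call held under all 15 alternatives. Exons of KIFC3 overlap genes on the other strand, which no alternative addresses. KIFC2 had 17.7, 17.2 and 17.2 CPM in shATXN7L3 cells, against 14.7, 14.6 and 15.8 CPM in shcontrol cells (log2 fold change 0.21, edgeR adjusted p = 0.0271). The call of KIFC2 was lost under 7 of 15 alternatives, among them DESeq2 (adjusted p = 0.135) and leaving out shcontrol replicate 1 (edgeR adjusted p = 0.0605). KIFC1, the mitotic motor of this class, had 63.6, 62.8 and 59.6 CPM in shATXN7L3 cells, against 59.6, 59.3 and 59.1 CPM in shcontrol cells, and did not pass the test (log2 fold change 0.06, edgeR adjusted p = 0.369).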
